A study of Mus musculus with 3 samples.

Results

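The regions described here are stretches of chromatin away from the ends of protein-coding genes that carried acetylated histone H3 (H3K27ac) in all 3 Arid1a genotypes of MIN6 cells, a mouse insulinoma line that serves as a beta cell model. Overlapping H3K27ac peaks of the 3 deposited ChIP-seq lists were merged on mm10. A merged region was kept where each of the 3 lists had a peak in it, where it lay more than 1 kb from both ends of every protein-coding gene, and where it held no wild-type peak of 1500 bp or wider. This left 7646 of 52943 merged regions (14.4%, Wilson 95% interval 14.1 to 14.7%), called constant distal regions below. A peak in all 3 lists was found for 36.8% of all merged regions, for 21.5% of the 37407 distal ones and for 73.8% of the 15536 that lay within 1 kb of a gene end. Those shares come from the peak calls that chose the regions and are given as a description. Intervals here cover counting error alone.

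The groups were an Arid1a homozygous knockout, an Arid1a heterozygous knockout and a wild type, with 1 library each. Per the labels, MIN6 cells were first made to express Cas9 from a lentivirus and then received a second lentivirus with 1 guide RNA against Arid1a, and single clones were sorted into the 3 genotypes by PCR and by Western blotting for the protein. By that account the wild-type cells had gone through the same Cas9 and guide treatment. The labels do not say how many clones stand behind a library, nor what the word GAL4 in the names of the wild-type peaks stands for. The antibody was Abcam Ab4729. With 1 library per genotype, a difference between genotypes cannot be told apart from a difference between clones or libraries, and no test across samples was possible.

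H3K27ac is laid down by the acetyltransferases p300 and CBP at active promoters and at active enhancers, the stretches of DNA that raise transcription of a gene from a distance. Arid1a encodes a subunit of the SWI/SNF complexes, which move nucleosomes and which act at many enhancers. In beta cells, enhancers bound by Pdx1, Neurod1, Nkx2-2, Foxa2 and related factors lie around the genes for insulin, its processing and its release.

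Sequences were available for annotated transcription starts, which 778 of the constant distal regions held, and for microRNAs. The windows below run from 250 bases before a start to 50 bases after it, on the strand of the gene, and were taken from RefSeq on GRCm38.p6. They are shown because each start lies inside a constant distal region although it is away from both ends of its gene. Egf encodes the ligand epidermal growth factor, Egr2 a zinc finger factor of the immediate early response, and Hk1 a hexokinase that beta cells normally keep low. Myt1 is a zinc finger factor of islet and neuronal development, and Unc13b primes vesicles for exocytosis. Capitals mark letters that match one of 14 motifs searched on both strands.
Egf, chr3:129725037-129725336, minus strand: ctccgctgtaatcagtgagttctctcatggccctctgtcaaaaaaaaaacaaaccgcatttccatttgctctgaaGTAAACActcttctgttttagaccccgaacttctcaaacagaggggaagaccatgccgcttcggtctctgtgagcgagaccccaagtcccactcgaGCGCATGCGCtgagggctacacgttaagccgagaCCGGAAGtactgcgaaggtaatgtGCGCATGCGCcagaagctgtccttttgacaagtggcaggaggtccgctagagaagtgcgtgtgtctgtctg
Egr2, chr10:67537316-67537615, plus strand: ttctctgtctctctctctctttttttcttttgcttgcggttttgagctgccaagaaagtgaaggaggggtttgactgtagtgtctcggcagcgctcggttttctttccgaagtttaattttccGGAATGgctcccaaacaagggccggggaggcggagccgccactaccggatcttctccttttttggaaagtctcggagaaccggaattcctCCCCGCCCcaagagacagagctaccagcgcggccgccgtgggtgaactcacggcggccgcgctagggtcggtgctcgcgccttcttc
Hk1, chr10:62340372-62340671, minus strand: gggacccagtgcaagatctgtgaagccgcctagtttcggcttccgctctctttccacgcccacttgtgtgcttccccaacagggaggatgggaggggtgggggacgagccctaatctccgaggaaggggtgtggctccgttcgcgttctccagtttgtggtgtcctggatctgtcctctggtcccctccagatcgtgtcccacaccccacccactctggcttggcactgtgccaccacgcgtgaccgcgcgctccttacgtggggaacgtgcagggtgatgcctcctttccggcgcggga
Myt1, chr2:181766779-181767078, plus strand: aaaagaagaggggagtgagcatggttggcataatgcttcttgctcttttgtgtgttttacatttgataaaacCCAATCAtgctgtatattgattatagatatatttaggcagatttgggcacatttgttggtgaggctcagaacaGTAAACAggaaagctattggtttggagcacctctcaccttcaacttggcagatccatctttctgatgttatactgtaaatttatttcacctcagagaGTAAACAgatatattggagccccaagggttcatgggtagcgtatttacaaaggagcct
Unc13b, chr4:43058703-43059002, plus strand: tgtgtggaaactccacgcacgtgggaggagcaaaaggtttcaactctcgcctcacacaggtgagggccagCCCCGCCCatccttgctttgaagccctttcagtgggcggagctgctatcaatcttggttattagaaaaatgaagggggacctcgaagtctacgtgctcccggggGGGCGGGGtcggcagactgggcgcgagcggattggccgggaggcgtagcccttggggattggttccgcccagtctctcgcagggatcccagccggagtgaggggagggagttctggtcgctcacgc

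The capitals in the Egf window are a FOXA match (TGTTTAC, found in 3.66% of all 32543 start windows), an ETS match (CCGGAAG, 8.91% of all windows) and a pair of NRF1 matches (GCGCATGCG, 1.76%), where the matches of both strands overlap into a longer run of capitals. The Egr2 window holds a TEAD match (GGAATG, 14.6% of all windows) and an SP/KLF match (GGGCGGGG, 17.7%), the Unc13b window a pair of SP/KLF matches, and the Myt1 window a pair of FOXA matches and 1 NFY match (CCAATCA, 7.80%). The Hk1 window holds none of the 14 motifs. The others searched were the AP-1 letters TGANTCA (7.79% of all windows), CRE TGACGTCA (1.80%), MAF TGCTGAC (4.65%), NEUROD1 CAGATGG (5.29%), RFX GTTGCNANG (4.70%), HNF1 GTTAATNAT (0.808%), homeobox CTAATTAG (0.261%) and CTCF AGGGGGCGC (1.25%). The windows also differed in base composition. The ratio of observed to expected CpG, which is high in CpG islands, was 0.997 for Egr2, 0.828 for Egf, 0.710 for Unc13b and 0.665 for Hk1, against 0.0887 for Myt1, whose window was 39.3% G and C.

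The constant distal regions also overlapped 27 of 1228 annotated microRNA genes, 26 of them with a mature sequence in the RefSeq table on GRCm38.p6. These genes lay in 25 of the regions (0.327%), against 0.110% of all distal regions and 0.498% of constant gene-end regions, with no matching for width. MicroRNAs are short RNAs that pair with messenger RNAs mainly through bases 2 to 8, the seed, which stands in capitals below. The 5 sequences shown belong to microRNAs of islet and neuronal cells whose genes overlap a constant distal region. Mir375 is abundant in islets, Mir132 and Mir212 are a pair transcribed together and induced by cAMP signalling, Mir9-3 is one of 3 genes for miR-9, and Mir344 belongs to a cluster on chromosome 7. For Mir375 the sequence and seed below are those of the 5p arm, and the 3p arm is not shown. The abundance in islets is not stated for the 5p arm.
miR-375-5p, chr1:74900696-74900717, minus strand: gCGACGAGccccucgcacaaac
miR-132-3p, chr11:75173723-75173744, plus strand: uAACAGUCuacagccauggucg
miR-212-3p, chr11:75173443-75173464, plus strand: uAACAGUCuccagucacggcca
miR-9-5p, chr7:79505279-79505301, plus strand: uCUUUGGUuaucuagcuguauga
miR-344-3p, chr7:61877782-61877804, minus strand: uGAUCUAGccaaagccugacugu
miR-132-3p and miR-212-3p share the seed AACAGUC. The Arid1a guide RNA that the labels give under each of the 3 libraries is shown with its PAM in capitals, and it targets Arid1a on chromosome 4.
Arid1a guide: gctgctgctgatacgaaggtTGG

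The homozygous list held 34298 peaks, the heterozygous list 31365 and the wild-type list 41490. Total reads per library were not used here. A whole-number summit pile-up, the reads stacked at the summit, and a local background were solved for each peak from the deposited fold enrichment and p, which left 1, 2 and 1 peaks of the 3 lists unsolved. The lowest background of a list, which rises with depth, was 1.73 reads per position in the homozygous library, 1.73 in the heterozygous and 2.17 in the wild-type library. The beta cell identity of the libraries was checked at gene ends. Of the 8 beta cell markers, Pdx1 and Slc2a2 had no constant gene-end peak, and the other 6 had one (Ins1, Ins2, Nkx6-1, Mafa, Neurod1 and Iapp). So did 1 of 4 duct markers (Krt7, a keratin), and none of 4 alpha cell, 2 delta cell, 2 PP and epsilon cell, 4 acinar, 4 mesenchymal and 5 immune and endothelial markers. The longer gene lists used below were not free of such peaks. They had one at 1 of 15 alpha cell and other islet hormone genes, 1 of 14 acinar and 2 of 10 duct genes. The same held for 2 of 14 mesenchymal and 1 of 14 immune and endothelial genes, against 14 of 23 beta cell transcription factors and 46.1% of all protein-coding genes.

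The limits of the rule cut through a continuous range. The constant regions just over 1 kb from a gene end lay 1003 bp from Myo1c, 1003 bp from Pkdcc and 1004 bp from Gtf2ird2, and those just within it lay 1000 bp from Arid1b, 998 bp from Ktn1 and 996 bp from Negr1. The widest wild-type peaks kept measured 1498 bp at Sdk2, 1497 bp at Zfp704 and 1497 bp at Dcun1d1. The narrowest ones left out measured 1502 bp at Rbm47, 1503 bp at Pkd2 and 1505 bp at Rap1b.

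Of the constant distal regions, 55.2% lay inside a protein-coding gene (54.1 to 56.4%), close to the 54.7% of all distal regions. Strand and exons are not in the gene table used, so introns and exons are not separated. The regions lay nearer to genes than other distal regions did. Their median distance to the nearest gene end was 18.9 kb, against 29.8 kb for the 10968 distal regions called in wild type alone, 30.5 kb for the 10350 called in 1 knockout alone and 27.2 kb for all distal regions. More than 100 kb from any gene end lay 14.9% of the constant distal regions (14.1 to 15.7%), against 20.9% of the regions of wild type alone and 22.6% of those of 1 knockout alone. Read the other way, a distal region 1 to 5 kb from a gene end had a peak in all 3 lists and no broad wild-type peak in 30.0% of cases, a region at 5 to 20 kb in 22.2%, at 20 to 100 kb in 18.2% and beyond 100 kb in 15.4%. The gradient also held without regions that contain an annotated start and without chromosome 18, where starts were not available, at 26.1, 20.4, 17.3 and 14.9% in the same order.

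Distal by this rule did not mean free of promoters. The table of starts covers every chromosome used here except chromosome 18, which leaves 7378 constant distal regions. An annotated start lay inside 778 of them (10.5%, 9.86 to 11.3%), against 109 of 10607 distal regions of wild type alone (1.03%), 71 of 9981 of 1 knockout alone (0.711%) and 3.43% of all distal regions. Starts of protein-coding genes, alternative ones inside the gene, lay in 556 regions and belonged to 542 genes. Starts of lncRNA genes, whose ends the rule did not exclude, lay in 251. Constant regions at gene ends held a start in 45.5% of cases.

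Wider regions have more room for a start, and the constant distal regions were wide, with a median of 767 bp against 348 bp for wild type alone and 321 bp for 1 knockout alone. Among regions of 400 to under 800 bp the share with a start was still 6.31% for constant distal regions (5.55 to 7.18%), against 1.31% for wild type alone and 1.36% for 1 knockout alone. Among regions of 800 to under 1200 bp it was 15.0% (13.6 to 16.6%), against 2.60 and 3.96%.

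**Figure D1:**
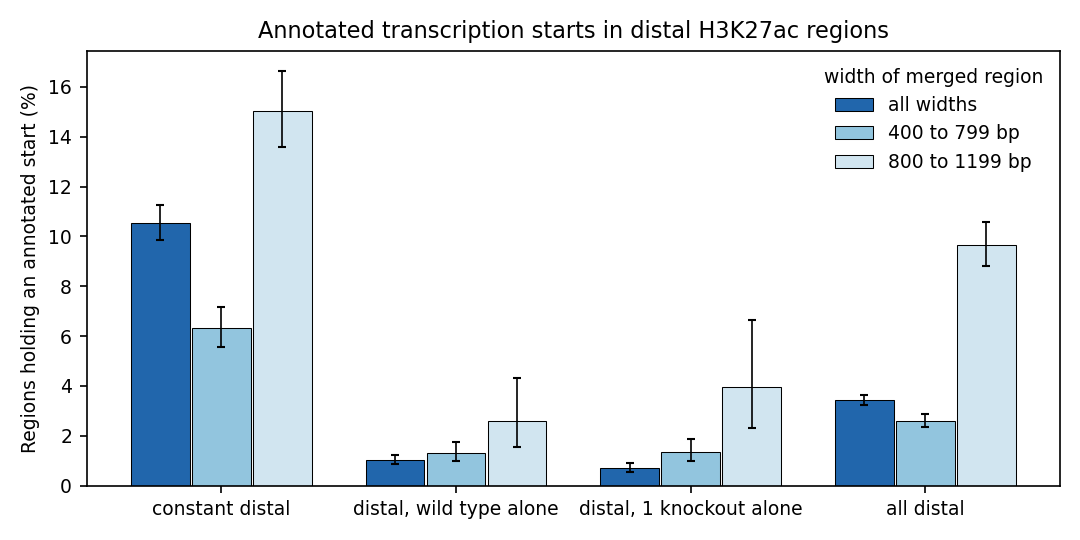
Share of distal H3K27ac regions that hold an annotated transcription start, in percent, for constant distal regions, distal regions called in wild type alone or in 1 knockout alone, and all distal regions. Bars are shares over all widths and in 2 width classes, and error bars are Wilson 95% intervals. In each width class the constant distal regions have the tallest bar, 10.5% over all widths.

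The starts inside constant distal regions were rich in CpG. Of their 933 windows, 65.8% had a CpG ratio of at least 0.6 (62.7 to 68.8%), against 20.7% of the 116 windows in distal regions of wild type alone, 19.7% of the 76 in those of 1 knockout alone and 36.1% of all windows. The share was 83.7% at constant gene-end regions. Coding-gene starts had it in 74.6% of windows and lncRNA starts in 46.6%. The ETS letters CCGGAAG stood in 13.1% of constant distal windows, 23.4% of constant gene-end windows and 8.91% of all windows. The FOXA letters TGTTTAC stood in 4.39% of constant distal windows (3.26 to 5.91%), 2.22% of constant gene-end windows and 3.66% of all windows, the last of which lies within the counting interval of the first. They stood in 5.17% of windows in distal regions of wild type alone (6 of 116) and 7.89% of those of 1 knockout alone (6 of 76), where the ETS letters stood in 2.59 and 3.95%. These sets of windows differ in CpG content, as given above, and its part in the motif shares was not tested.

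Where a constant distal region held a start, the authors' fold enrichment of its peak, the summit pile-up over the local background of the same library, was higher. Its median was 9.07 in homozygous, 8.02 in heterozygous and 8.40 in wild-type cells, against 6.43, 5.49 and 5.74 in constant distal regions without a start, a ratio of 1.41, 1.46 and 1.46. Regions with a start stood level with constant gene-end regions, at 1.03, 1.01 and 1.01 times their median fold.

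Among the listed genes, the start region of Egf had one of the highest folds of all constant distal regions. The region, chr3:129724799-129725482, lies inside Egf and 29840 bp from its nearer end. Its fold was 20.7 in homozygous, 21.3 in heterozygous and 20.5 in wild-type cells, with pile-ups of 94, 105 and 122 reads. It ranked above the 99th percentile of constant distal regions in each library. The region over the Egr2 start, chr10:67536962-67537821, had folds of 19.8, 11.9 and 9.74 and pile-ups of 128, 98 and 104 reads, so that the highest value was the homozygous one on both scales. The Unc13b start, chr4:43058930-43059652, had folds of 15.1, 11.5 and 12.3.

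Other listed genes with an internal start in a constant distal region were Grb2, the adaptor that links receptor tyrosine kinases to Ras, Nr4a1, an orphan nuclear receptor of the immediate early response, Zeb2, a zinc finger repressor, and Elavl4, a neuronal RNA-binding protein. At Nr4a1 the fold hardly differed between libraries, with 6.71 in homozygous, 6.68 in heterozygous and 6.75 in wild-type cells. At Myt1, chr2:181766059-181768023, the fold was 6.29, 5.38 and 3.69 while the pile-up ran the other way, at 124, 161 and 177 reads. The local background there was 18.9 reads in homozygous, 29.1 in heterozygous and 47.2 in wild-type cells.

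That local background rose with the length covered by peaks in the neighbourhood. Every background above the lowest of its list was a whole multiple of 0.02 reads, within 0.002, for 32863 homozygous, 30477 heterozygous and 39090 wild-type peaks. Within 5 kb of the summit, the length covered by peaks of the same library was compared with the background over the 7646 regions, which share library and depth. Spearman's rank correlation was 0.871 in homozygous, 0.821 in heterozygous and 0.862 in wild-type cells. How the background was computed is not stated. If it was counted from reads of the same library near the summit, much of this correlation is built in, so it is given as a description. With the regions split by covered length into 3 groups of equal size, from least to most covered, the median background in homozygous cells was 3.30, 7.75 and 18.8 reads. The median pile-up was 32, 62 and 109 reads, and the median fold 7.30, 7.21 and 5.34. In the same groups the heterozygous folds were 6.04, 6.15 and 4.83 and the wild-type folds 6.58, 6.64 and 4.71. A region in densely acetylated surroundings thus had a high pile-up and a low fold, and both are given below.

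Over all constant distal regions the median fold was 6.60 in homozygous, 5.66 in heterozygous and 5.91 in wild-type cells. The 10840 constant gene-end regions without a broad wild-type peak had 8.77, 7.96 and 8.29, so that the distal medians were 0.752, 0.711 and 0.713 times theirs. By pile-up the ratios were 0.692, 0.794 and 0.733, from distal medians of 63, 50 and 66 reads and gene-end medians of 91, 63 and 90. Distal regions called in wild type alone were lower, with a median fold of 4.95 and a pile-up of 27 reads. A weak peak is less likely to be called in each of 3 libraries, so this order is not independent of the rule.

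The constant distal regions were not uniformly strong. The −log10 q of the peak reached 10 in all 3 lists for 5449 regions (71.3%), 20 for 2738 (35.8%) and 50 for 605 (7.91%). Fold was above the median of its list in all 3 lists for 35.3% of regions and below it in all 3 for 31.2%.

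The strongest constant distal regions by fold were mostly narrow. Regions above the 99th percentile of fold in all 3 lists numbered 58, with widths of 327 to 1118 bp, and 13 of them held a gene for a small nuclear RNA, 7 an annotated start and 18 no annotated gene. The region with the highest lowest percentile, chr9:24541888-24542282, lies 14765 bp from Dpy19l2 and had folds of 31.6 in homozygous, 32.0 in heterozygous and 32.8 in wild-type cells. Next came chr1:195241537-195242011, 64657 bp from Cr2, with 30.8, 30.6 and 30.5, and chr7:26779812-26780164, 7182 bp from Cyp2b19, with 30.1, 30.2 and 30.4. The other 5 were chr6:103648943-103649402 inside Chl1, chrX:143482883-143483237 near Pak3, chr11:87471001-87471457 over the small nucleolar RNA gene Rnu3b2, chr13:77438785-77439178 inside 2210408I21Rik and chr12:3109750-3110239, 137189 bp from Rab10. The folds of these 8 regions lay between 26.8 and 32.8 in every library. Repeated and multi-copy sequence was not filtered out, and its part in these peaks was not tested.

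Genes for small nuclear RNAs, which build the spliceosome and related particles, lay in 36 constant distal regions (0.471%). They lay in 2 distal regions of wild type alone (0.0182%), 2 of 1 knockout alone (0.0193%) and 46 of all distal regions (0.123%). Wider regions have more room for a gene, and the shares for small RNA genes were not matched for width. RefSeq places the U3 genes Rnu3b1 to Rnu3b4 in the same class. The median fold of the 36 was 16.9 in homozygous, 15.6 in heterozygous and 17.0 in wild-type cells. The pile-up medians were 155, 151 and 182 reads over backgrounds of 6.97, 7.04 and 9.07 reads. In all 3 lists 21 of the 36 stood above the 95th percentile of fold.

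Named members were the 7SK gene Rn7sk, which encodes an RNA that restrains the elongation factor P-TEFb, with folds of 10.8 in homozygous, 12.52 in heterozygous and 10.2 in wild-type cells, and Rnu11 of the minor spliceosome, with 12.55, 15.1 and 12.6. The U1 gene Rnu1a1 had 19.2, 17.5 and 15.3, the U2 gene Rnu2-10 23.6, 28.5 and 24.1, and the U5 gene Rnu5g 17.0, 19.3 and 17.95. The 4 genes Rnu3b1 to Rnu3b4 lie inside Tex14 and had folds between 20.7 and 30.5. Reads of such near-identical copies may be shared between them, so the values of single copies are uncertain. Of the 36 regions, 2 on chromosome 12 had the largest ratio of highest to lowest pile-up, and they are named after their values were seen. Gm25679 had 24 reads in homozygous, 131 in heterozygous and 174 in wild-type cells, and Gm26444 had 25, 145 and 184.

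Genes for transfer RNAs lay in 29 constant distal regions (0.379%), which held 34 of 408 annotated ones. They lay in 5 distal regions of wild type alone (0.0456%), 1 of 1 knockout alone (0.00966%) and 42 of all distal regions (0.112%). The median fold of the 29 was 9.25 in homozygous, 7.31 in heterozygous and 8.76 in wild-type cells, with pile-ups of 92, 44 and 93 reads.

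The region over Mir375, chr1:74899953-74900909, had a pile-up of 154 reads in homozygous, 116 in heterozygous and 146 in wild-type cells, over a background of 54.1, 52.6 and 52.9 reads. Its fold was low, at 2.82, 2.18 and 2.73. The region over Mir212 and Mir132, chr11:75172582-75173739, had pile-ups of 89, 159 and 174 reads and folds of 10.2, 7.58 and 6.69. Here the homozygous library had the fewest reads and the highest fold, over a background of 7.84 reads against 20.1 in heterozygous and 25.1 in wild-type cells. At Mir9-3, chr7:79504458-79505577, the pile-up was 66, 25 and 77 reads.

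The Mir344 cluster had 5 constant distal regions between chr7:61725678 and chr7:61982364, each more than 365 kb from the nearest gene end, which for 4 of them was that of Ndn. The pile-up was lowest in the heterozygous library at 4 of the 5 and in wild type at the remaining one. The mature 5p sequences of Mir7b, of the miR-7 family found in islets, and of Mir210, a hypoxia microRNA, lay 545 bp and 685 bp outside a constant distal region. The Mir7b region, chr17:56241759-56242472, had pile-ups of 131 reads in homozygous, 75 in heterozygous and 123 in wild-type cells.

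A nearest gene end within 100 kb was found for 6508 constant distal regions, which fell to 3749 of 21883 protein-coding genes (17.1%). Nearness does not show which gene a region acts on. Genes with a gene-end peak in all 3 lists had a constant distal region in 21.3% of cases (2152 of 10083, interval 20.6 to 22.2%), other genes in 13.5% (1597 of 11800).

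The genes with the most were Gm52481 on the Y chromosome with 15 regions, the zinc finger gene Zfp516 with 14, the chromatin remodeller gene Chd7 and the Notch coactivator gene Maml3 with 11 each, and Chd2, another remodeller gene of the CHD family, with 10. Gins2, of the replication helicase, the deacetylase gene Hdac4, the nuclear envelope gene Tmpo and Gm40363 had 9 each, and the corepressor gene Rere had 8. The 9 regions counted to Gins2 all lie inside Gse1, whose own ends are farther away. At Maml3, where 10 of 11 regions lie inside the gene, pile-ups had a median of 117 reads in homozygous, 100 in heterozygous and 83 in wild-type cells. At Chd7 the order was the other way round, with medians of 54, 63 and 88 reads. At Chd2 the medians were 178, 114 and 140 reads.

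The beta cell genes had their regions in dense surroundings, which was not particular to them. Of 23 beta cell transcription factors, 13 had a constant distal region (56.5%, against 17.1% over all protein-coding genes). They had 21 regions in all, or 24.1% of the 87 distal regions nearest to them, against 21.7% over all genes. Both all-gene shares are the ones to set beside the lists below. With only peaks of −log10 q of at least 10, the list had 8 regions. Genes of insulin and the secretory granule had 38 regions at 11 of 22 genes, or 31.1% of their distal regions. Glucose sensing and coupling genes had 27 regions at 12 of 21 genes (26.0%), and exocytosis genes had 18 at 9 of 20 (21.95%). By fold, the median rank of the granule regions among all constant distal regions was 15.7 in homozygous, 18.04 in heterozygous and 19.1 in wild-type cells, on a scale where 0 is the lowest and 100 the highest. By pile-up the same regions ranked at 65.6, 68.9 and 71.9, and by local background at 70.7, 84.2 and 73.7. The exocytosis regions ranked likewise, at 17.7, 15.0 and 14.3 by fold and 62.1, 69.6 and 54.8 by pile-up. By local background the glucose sensing regions ranked at 56.9, 83.8 and 69.8. Regions of AP-1 and EGR genes ranked at 75.8, 80.1 and 70.0, and those of housekeeping genes at 96.1, 95.6 and 93.8. Other lists ranked lower, such as EGF ligands and ErbB receptors at 20.2, 34.7 and 26.0.

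**Figure D2:**
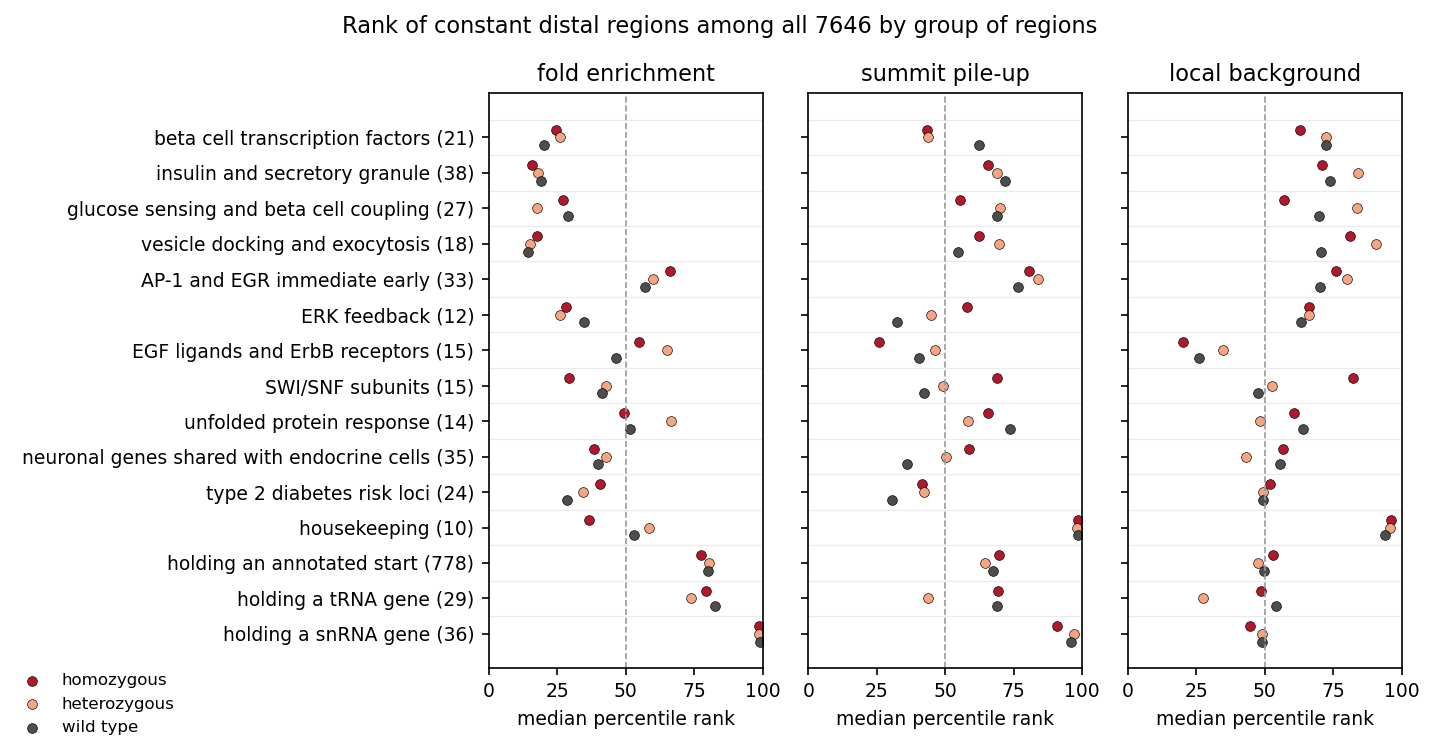
Median percentile rank of constant distal regions grouped by the list of their nearest gene or by what they hold, for fold enrichment, summit pile-up and local background, with 1 point per library and the number of regions in brackets. Ranks run from 0 to 100 among the 7646 regions of the same library. The granule and exocytosis regions lie left of 50 for fold and right of 50 for pile-up and background, while regions with a small nuclear RNA gene lie near 100 for fold.

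Ins1, one of the 2 mouse insulin genes, had 2 constant distal regions, its only distal ones. The nearer, chr19:52252699-52253970, lies 10327 bp from the gene and had pile-ups of 72 reads in homozygous, 44 in heterozygous and 123 in wild-type cells. The other, chr19:52251993-52252390, had 59, 50 and 107 reads. Wild type was thus highest by pile-up at both. By fold it was lowest at both, with 5.18 and 4.23 in homozygous, 4.20 and 4.71 in heterozygous, and 4.15 and 3.67 in wild-type cells. Ins2 had none of its 2 distal regions in all 3 lists. Iapp, which encodes the amyloid peptide secreted with insulin, had 4 constant distal regions 7393 to 16443 bp away, inside Slco1a5, with pile-ups of 117 to 182 reads in homozygous, 118 to 162 in heterozygous and 137 to 181 in wild-type cells.

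Pdx1, a master regulator of the beta cell, had no constant gene-end peak and 1 constant distal region at chr5:147268314-147268922, 1175 bp from the gene. Its pile-up was 170 reads in homozygous, 109 in heterozygous and 177 in wild-type cells, over backgrounds of 94.6, 41.9 and 82.1 reads. The fold of 1.79, 2.57 and 2.14 ranked below 2 on a scale of 0 to 100 among constant distal regions in each library. Iapp, Pdx1 and Nkx6-1 are described as marker genes, outside the rule for named genes. Nkx6-1 had 1 region, 79270 bp away, with 44, 17 and 35 reads. Rfx6, a winged helix factor of islet development, and Mnx1, a homeobox factor, had 3 regions each.

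Abcc8, which encodes the sulfonylurea receptor of the beta cell potassium channel, had 6 constant distal regions, all inside the gene. Pile-ups ran from 77 to 198 reads in homozygous, 63 to 169 in heterozygous and 71 to 176 in wild-type cells, and folds from 2.22 to 4.87 over all 3 libraries. Cpe, the carboxypeptidase that trims prohormones, had 4 regions inside the gene. At chr8:64663668-64664909 the pile-up was 223, 150 and 194 reads, and at chr8:64628613-64629375 it was 115, 82 and 33. The Cpe regions thus included one where wild type was lowest and one where it lay between the knockouts. Scg3, a granule protein that sorts hormones, had 6 regions, with median pile-ups of 56.5 reads in homozygous, 67.5 in heterozygous and 105 in wild-type cells. Syt13, a synaptotagmin, had 5, with 99, 92 and 77 reads. The amidating enzyme gene Pam had 5 and the zinc transporter gene Slc30a8 had 4.

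**Figure D3:**
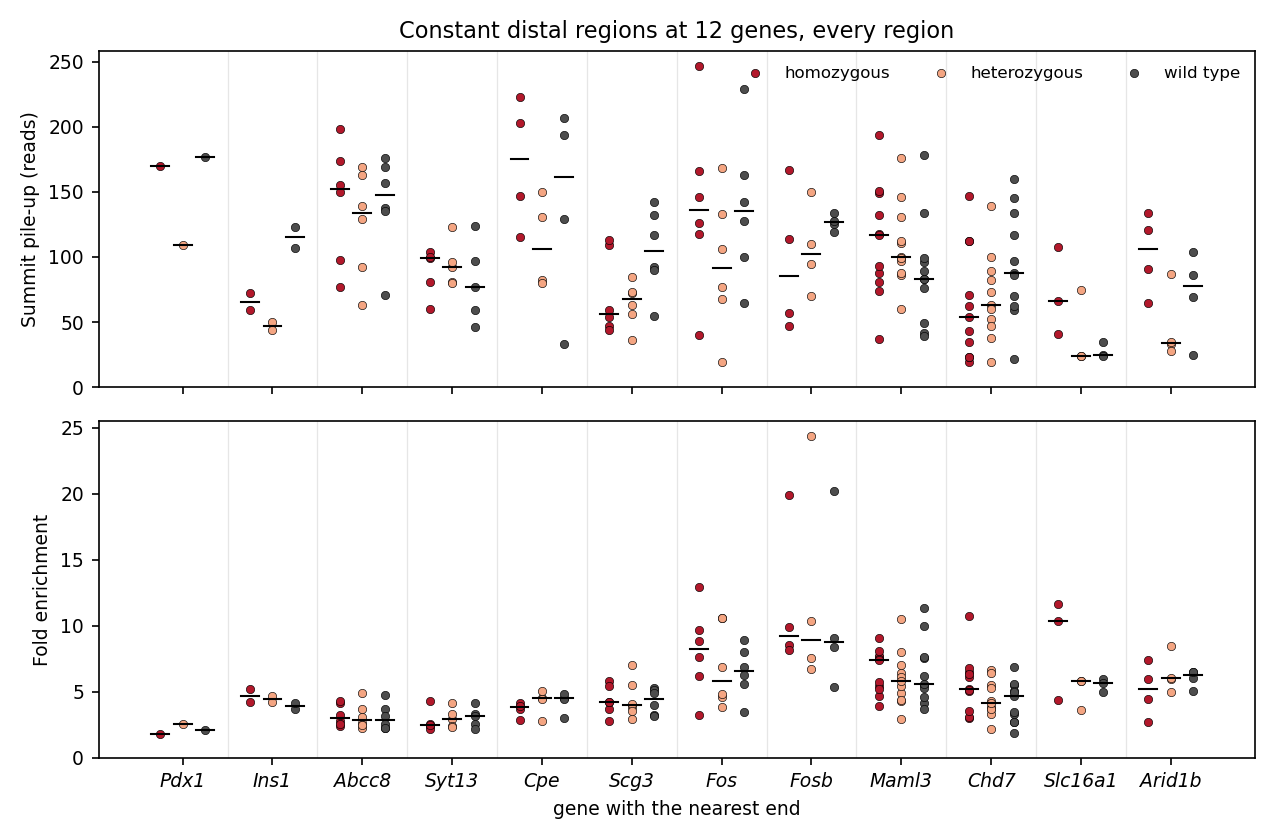
Summit pile-up in reads (upper panel) and fold enrichment (lower panel) of every constant distal region whose nearest gene end belongs to one of 12 genes, with 1 point per region and library and a bar at the median of the gene. At Abcc8, Syt13 and Pdx1 all folds lie below 5 although pile-ups reach 198, 124 and 177 reads, while Fosb has 1 region with a fold near 20 or above in each library.

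The immediate early genes of the AP-1 and EGR families had constant regions more often than most lists. A constant distal region was found at 15 of 22 genes. The 33 regions were 44.6% of the 74 distal regions nearest to these genes, against 21.7% over all genes and 47.6% for housekeeping genes. Their pile-up ranks were high too, at 80.5 in homozygous, 84.0 in heterozygous and 76.4 in wild-type cells, as were those by fold, at 66.2, 59.7 and 56.8. Fos, a subunit of AP-1, had 6 regions. The strongest, chr12:85455511-85456427, lies 17463 bp away and had 247, 168 and 229 reads and folds of 12.9, 10.6 and 8.95. Its paralog Fosb had 4, and the region chr7:19300878-19301472, 1224 bp from the gene, had folds of 19.9, 24.4 and 20.2 and pile-ups of 114, 150 and 134 reads. The antiproliferative gene Btg2 had 5 regions, with median pile-ups of 186, 139 and 146 reads.

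In the EGF ligand and ErbB receptor list, 9 of 25 genes had 15 constant distal regions, 28.8% of their distal ones, and 8 with only peaks of −log10 q of at least 10. Besides the Egf region described above, Grb2 had 4, all inside the gene, and the docking protein gene Gab2 and the ligand genes Hbegf and Nrg4 had 2 each. At Nrg4 the region chr9:55295624-55296351 had 177 reads in homozygous, 39 in heterozygous and 52 in wild-type cells, over backgrounds of 20.4, 3.44 and 5.20 reads, and folds of 8.30, 9.01 and 8.55. At Grb2 the region chr11:115649933-115650802 had 19, 117 and 76 reads. The list had no common direction between genotypes.

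Feedback regulators of ERK signalling had 12 constant distal regions at 9 of 17 genes, 15.8% of their distal regions, and 4 with only peaks of −log10 q of at least 10. Dusp1, a phosphatase that inactivates MAP kinases, had 2 within 3 kb of the gene, with 221, 116 and 148 reads at chr17:26503297-26504176. Errfi1, an inhibitor of the EGF receptor, also had 2. The one nearer to the gene, chr4:150855087-150856006, had 154 reads in homozygous, 84 in heterozygous and 107 in wild-type cells, and the other, chr4:150804503-150805107, had 14, 39 and 30 reads.

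SWI/SNF subunit genes had 15 constant distal regions, 20.8% of their distal ones, near the 21.7% over all genes. These lay at 9 of 28 genes (32.1%), and 25 of the 28 had a gene-end peak in all 3 lists. Over all genes with such a gene-end peak, 21.3% had a constant distal region. Arid1a itself had 1 of 4 distal regions in all 3 lists, at chr4:133729688-133730465, inside the gene and 26304 bp from its nearer end. The pile-up there was 30 reads in homozygous, 40 in heterozygous and 57 in wild-type cells, and the fold 4.20, 5.01 and 5.94. Both were lowest in homozygous and highest in wild-type cells. Acetylation at this region is no check of the knockout. Arid1b, the paralog that takes the place of Arid1a in other SWI/SNF complexes, had 4 regions. At chr17:4945603-4946370 the pile-up was 121, 33 and 25 reads while the folds were 5.99, 6.01 and 6.07. Smarca2, an ATPase of the complex, had 3, and at chr19:26606783-26607827 the pile-up was 112, 42 and 50 reads and the fold 2.66, 3.53 and 3.81. The median pile-up rank of the SWI/SNF regions was 68.7 in homozygous, 49.0 in heterozygous and 42.0 in wild-type cells, and their background rank was 82.3, 52.7 and 47.5.

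The unfolded protein response genes, which beta cells use heavily, had 14 regions at 7 of 20 genes, or 50.0% of their 28 distal regions. The share was 21.7% over all genes and 47.6% for housekeeping genes, so a high share was not particular to this list. All 20 genes had a gene-end peak in all 3 lists. Pdia4, a disulfide isomerase, had 4. The region chr6:47781292-47782113 had folds of 16.3 in homozygous, 18.1 in heterozygous and 14.0 in wild-type cells, and chr6:47788130-47789427 had 13.9, 13.4 and 14.8. They belong to a run of 12 constant distal regions that starts at Gm40363. Eif2ak3, the stress kinase PERK, had 3, and Ern1 and Atf6, the other sensors of the response, had 2 each.

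Genes that beta cells normally keep off had the smallest share of constant regions among their distal regions of the 18 lists. Constant ones made up 8 of their 84 distal regions (9.52%), against 21.7% over all genes. By genes the order was the other way round. A constant distal region was found at 5 of 17 genes (29.4%), against 17.1% over all protein-coding genes. Slc16a1, a lactate transporter, had 3, and at chr3:104616394-104616955 the pile-up was 108 reads in homozygous, 24 in heterozygous and 24 in wild-type cells, with folds of 11.6, 5.81 and 5.68. At Ldha, lactate dehydrogenase, the region chr7:46839219-46839979 had 31, 116 and 71 reads. At Hk1 the fold was 2.11, 7.04 and 7.66, but the pile-up was 74, 57 and 58 reads, over backgrounds of 34.5, 7.24 and 6.70.

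Neuronal genes shared with endocrine cells had 35 regions at 12 of 23 genes (25.7% of their distal regions), led by the splicing regulator Rbfox2 with 7 and by Elavl4 with 5. At 4 Elavl4 regions between chr4:110119668 and chr4:110129550 the homozygous pile-ups were 213, 150, 145 and 111 reads, against 53, 53, 52 and 50 in heterozygous and 60, 48, 51 and 51 in wild-type cells. Their folds lay between 2.36 and 3.98 in all libraries. Loci of type 2 diabetes risk had 24 regions at 12 of 25 genes (19.8%). Housekeeping genes had 10 regions at 4 of 16 genes (47.6% of their 21 distal regions), with the highest pile-ups of any list. The 2 regions at Actb, cytoplasmic actin, had 329 and 214 reads in homozygous, 247 and 155 in heterozygous, and 314 and 200 in wild-type cells, and lie inside the gene.

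Lists of other cell types held 10 to 15 genes each and had between 7 and 23 distal regions of any kind. Alpha cell and other islet hormone genes had 4 constant ones of 23 (17.4%), at 2 of 15 genes, acinar genes 3 of 7 (42.9%), at 2 of 14, and duct genes 4 of 12 (33.3%), at 3 of 10. Mesenchymal genes had 3 of 17 (17.6%) and immune and endothelial genes 4 of 15 (26.7%), each at 2 of 14 genes. The shares of distal regions for acinar, duct and immune and endothelial genes were thus above the 21.7% over all genes, on few regions. The share of genes with a constant distal region was 30.0% for duct genes, between 13.3 and 14.3% for the other 4 lists and 17.1% over all protein-coding genes. Irx2, an alpha cell transcription factor, had 2 regions with 42 and 19 reads in homozygous, 42 and 27 in heterozygous, and 76 and 49 in wild-type cells. The endothelial adhesion gene Pecam1 had 3 inside the gene without a gene-end peak in all 3 lists.

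Many constant distal regions had another one nearby. Another constant distal region stood within 12500 bp for 50.1% of them (49.0 to 51.3%). Within their own sets the share was 51.8% for distal regions of wild type alone, 56.9% for constant gene-end regions and 75.4% for all distal regions. Such a share rises with the number of regions, and these sets are more numerous, so it does not show which lie closer together. Joined at that distance, the constant distal regions formed 5468 groups, of which 1656 had at least 2 regions, 43 at least 5 and 4 at least 8. The largest, at chr9:3001977-3038308, had 16 regions and no gene end within 100 kb. The others were the run of 12 from Gm40363 to Pdia4 at chr6:47739964-47789427, 8 at chrY:90755465-90784817, and 8 at chr7:16295022-16326887 near Bbc3, an apoptosis gene, Ccdc9 and Sae1. On chromosome Y, 16 of 39 distal regions were constant (41.0%), and the share on the other chromosomes ran from 16.3% on chromosome 6 to 24.5% on X. No filter for repeated or multi-copy sequence was applied to the chromosome 9 group, the chromosome Y regions or those of Gm52481, and its part in their counts was not tested.

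Summits lay near each other in most constant distal regions. Peaks had to overlap to be merged, which keeps their summits close, above all in narrow regions, so these shares are a description and not independent of the rule. The summits of the homozygous and wild-type libraries lay within 100 bp of each other in 73.9% of regions (median distance 46 bp), those of the heterozygous and wild-type libraries in 73.2% (49 bp), and those of the 2 knockouts in 72.7% (49 bp). All 3 summits lay within 100 bp in 4358 regions (57.0%). At constant gene-end regions the shares were higher, at 86.0, 84.9 and 84.7%. The difference held within each width class. In regions of under 400 bp, the distal share for homozygous and wild type was 82.7% and the gene-end share 94.4%, and in regions of 800 bp or more they were 66.2 and 78.9%.

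**Figure D4:**
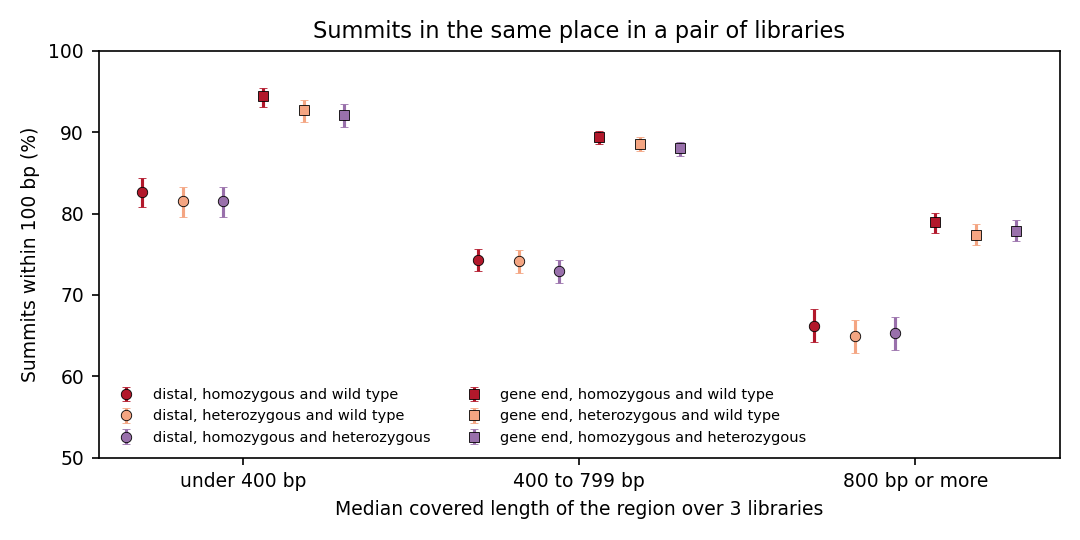
Share of constant regions, in percent, whose summits lay within 100 bp of each other in a pair of libraries, by the median covered length of the region over the 3 libraries. Circles are distal and squares gene-end regions, colours are pairs of libraries and error bars Wilson 95% intervals. The axis starts at 50%, and in each class the 3 distal points lie below the 3 gene-end points, at 66.2 against 78.9% for homozygous and wild type in the widest class.

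The order of the regions by fold was similar between libraries. Over the 7646 regions Spearman's rank correlation was 0.768 for homozygous and wild type, 0.788 for heterozygous and wild type, and 0.759 for the 2 knockouts, against 0.867, 0.850 and 0.839 over constant gene-end regions. By pile-up the correlation was lower, at 0.629, 0.635 and 0.615, against 0.834, 0.827 and 0.826. These values describe regions of single libraries, which share base composition and depth, and any pair of these 3 comparisons shares a library. The median region covered 0.958 times as many bases in homozygous as in wild-type cells and 0.883 times as many in heterozygous as in wild-type cells. The median ratio of pile-ups was 0.993 for homozygous over wild type and 0.767 for heterozygous over wild type, with no correction for depth.

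**Figure D5:**
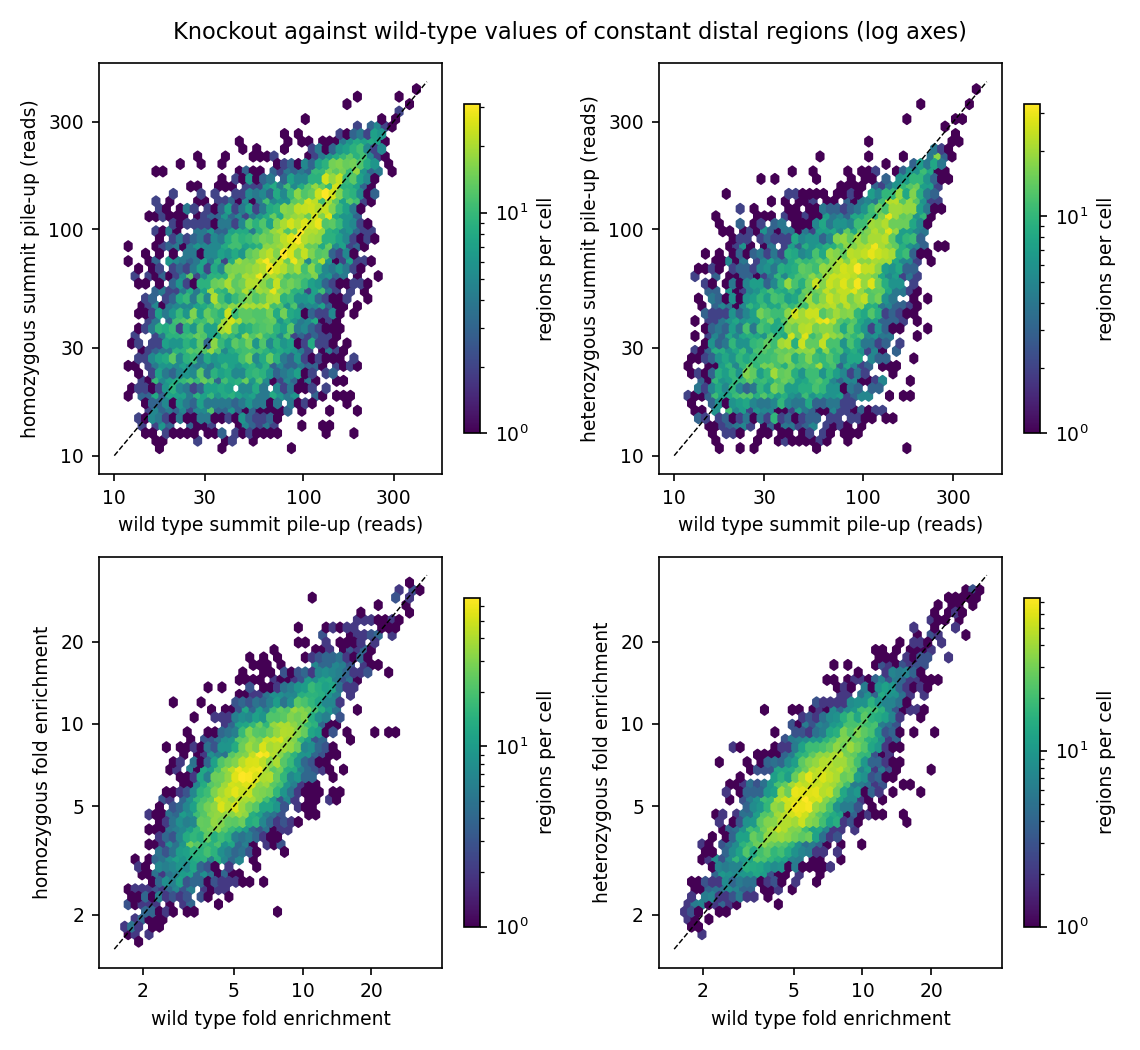
Summit pile-up in reads (upper panels) and fold enrichment (lower panels) of the constant distal regions in each knockout against wild type, on log axes. Colour is the number of regions per cell and the dashed line marks equal values. Points spread more widely by pile-up (rank correlations of 0.629 and 0.635) than by fold (0.768 and 0.788), and heterozygous pile-ups lie mostly below the line.

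Called in all 3 libraries did not mean equal in all 3. Ranked by fold among the 7646 regions, the median region moved by 10.3 percentile points between homozygous and wild type and by 10.3 between heterozygous and wild type, and 170 and 130 regions moved by more than 50 points. Of the 170, 81 ranked lower in homozygous cells, with a median pile-up ratio of 0.5 over wild type and a background ratio of 0.899, and 89 ranked higher, with ratios of 1.37 and 0.558.

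The largest moves down in homozygous cells were at Pde4d, a cAMP phosphodiesterase, at Las1l, of ribosome biogenesis, and at Hk1. The Pde4d region, chr13:109902807-109903286, had folds of 4.29 in homozygous, 3.53 in heterozygous and 9.80 in wild-type cells but pile-ups of 112, 31 and 39 reads. The largest moves up were at Nav2, a neuron navigator, with folds of 11.7, 3.16 and 2.79 and pile-ups of 119, 51 and 52 reads, at A530021J07Rik with 89, 54 and 64 reads, and 622011 bp from Cdh11, a cadherin, with folds of 11.8, 10.9 and 3.67. In the heterozygous library the largest moves down were at Pde4d, at Shroom1, an actin-binding protein, where the pile-up was 53 reads in homozygous, 11 in heterozygous and 172 in wild-type cells, and at Cdk20, where it was 28, 51 and 33. The largest moves up were at the Cdh11 region, at a region inside Trio and at Ppp2r2b, a phosphatase subunit.

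By pile-up the extremes were others, and they are named here after their values were seen. The neurotrophin gene Bdnf had a constant distal region over one of its starts, chr2:109677013-109678058, with 197 reads in homozygous, 107 in heterozygous and 22 in wild-type cells and folds of 9.15, 8.82 and 6.89. The region chr12:112517313-112517911 at Tmem179 had 179, 47 and 18 reads, and a region far from any gene end, chr15:14274160-14275638, had 183, 68 and 16. In the other direction, chr11:114176024-114177277 near the cell adhesion gene Sdk2 had 13, 81 and 185 reads, chr2:163099634-163100728 near Gtsf1l 16, 33 and 191, and chr11:75924535-75925880 inside Rph3al, a Rab effector of granule exocytosis, 17, 79 and 167. At these 6 regions the heterozygous value lay between the other two. They were picked as extremes of homozygous against wild type, so a middle value in heterozygous cells is not a finding about dose.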

How the data were processed

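H3K27ac ChIP-seq peaks of MIN6 cells in 3 Arid1a genotypes, 1 library each, were used as the authors deposited them, on mm10. Per the submitters' processing notes, bcl2fastq and MACS2 were used; their versions and settings are not stated there. The deposited lists give for each peak the authors' fold enrichment at the summit, their −log10 p and −log10 q, a score and the summit's position. The deposited score equalled 10 times the −log10 q, rounded down, for 34295 of 34298 homozygous, 31365 of 31365 heterozygous and 41489 of 41490 wild-type peaks. The q threshold and any filter of repeats or duplicates are not stated either.

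Pile-up and local background were solved from fold, taken as (pile-up + 1)/(background + 1), and from the Poisson p, within 0.001 of −log10 p. Peaks that shared at least 1 base were merged, and a region took the values of its peak with the highest −log10 p in each library. Gene ends, starts and sequences came from RefSeq tables of GRCm38.p6, with 21883 protein-coding genes. Scripts used Python 3.11.15, numpy 2.4.6, pandas 2.3.3, scipy 1.17.1, matplotlib 3.10.9 and bedtools 2.31.1, and merging, solving and counting were tested on simulated data. Regions were assigned to the nearest gene end within 100 kb. Named were the 10 genes with the most regions, up to 4 genes in each list, the 8 regions whose lowest fold percentile was highest, the 3 largest moves in fold rank in each direction, the regions nearest the limits, and Arid1a, Ins1 and Ins2. Starts inside listed genes, small RNA genes and marker genes were added after values were seen. The members and the 18 gene lists were chosen with earlier results of these data known. With 1 library per genotype there is no replicate check, and no p-value was computed. Alternatives varied the distance and width limits, the peak threshold, the list lengths and the measure.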

Additional observations from a re-analysis of the deposited data

How the results depend on the processing

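The number of constant distal regions stayed within 1.5 times 7646 under every setting run. The distal medians stayed below those of constant gene-end regions in every setting where the ratio was computed. That ratio was highest in the homozygous library by fold and lowest there by pile-up. The other sets of distal regions were not computed again, so whether differences from them held under these settings was not checked. With the 3 lists shortened to equal length by −log10 q, the share with a start was 11.8%, the spacing share 47.0%, the summit shares 75.6, 75.2 and 74.5% (homozygous and wild type, heterozygous and wild type, both knockouts), the rank correlations of fold 0.791, 0.806 and 0.776, and the distal over gene-end ratios of fold 0.774, 0.724 and 0.750 (homozygous, heterozygous, wild type). With only peaks of −log10 q of at least 10, these were 13.5%, 44.0%, 77.8, 77.5 and 77.5%, 0.810, 0.832 and 0.808, and 0.798, 0.755 and 0.758. A gene-end distance of 500 bp gave 56.7% inside genes and 11.97% with a start. At 2 kb, 53.6% lay inside genes and 9.47% had a start, with correlations of 0.758 and 0.779 against wild type and ratios of 0.764, 0.721 and 0.725. At 5 kb, the shares were 51.7% and 8.11%, the summit shares 71.9, 71.8 and 70.8%, the correlations 0.745, 0.769 and 0.737, and the ratios 0.777, 0.733 and 0.739. Without the width limit, the ratio was 0.761 in homozygous and 0.723 in wild-type cells, and the summit share of the knockouts 71.7%. Without regions that hold a start and without chromosome 18, 52.5% lay inside genes, with correlations of 0.746, 0.764 and 0.734 and ratios of 0.733, 0.690 and 0.693. A start within 500 bp was found for 19.0%. By pile-up in place of fold, correlations were 0.629, 0.635 and 0.615 and ratios 0.692, 0.794 and 0.733. Without the highest 1% by fold, correlations were 0.754, 0.776 and 0.745, and the ratio 0.765 in homozygous and 0.722 in wild-type cells. The spacing share was 43.0% at 5 kb and 58.2% at 25 kb. The cause of these shifts was not tested. In all, 66 of these values moved and 120 did not, and of the gene list counts 17 moved and 217 did not. Peaks of −log10 q of at least 10 gave 8 regions for beta cell transcription factors in place of 21, 4 for ERK feedback in place of 12, 8 for the EGF and ErbB list in place of 15, 8 for SWI/SNF in place of 15, 11 for type 2 diabetes loci in place of 24, 23 for neuronal genes in place of 35, 5 for genes kept off in beta cells in place of 8 and 1 for alpha cell and islet hormone genes in place of 4. A gene-end distance of 5 kb gave 17 for glucose sensing in place of 27, and 6 for ERK feedback, 5 for genes kept off, 6 for housekeeping in place of 10 and 2 for alpha cell and islet hormone genes. Lists of equal length gave 6 for ERK feedback and 5 for genes kept off, gene ends within 50 kb gave 14 for neuronal genes, and leaving out starts and chromosome 18 gave 0 for mesenchymal genes in place of 3. Added after the data were seen were all settings of the share with a start, leaving out starts, the top 1%, pile-up in place of fold, values of the peak with the highest fold, and merging of touching peaks.

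No paired analysis was possible because each genotype has 1 library. Leaving out a replicate was likewise not possible. Motif searches in windows around distal summits were not run. Unequal depth limits the calls: a region weak in the shallower knockouts can drop out of the set, and pile-ups were compared between libraries without a depth correction.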

Other observations

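Many distal regions missed the rule by 1 library. A peak in 2 of 3 lists was found for 2778 distal regions without a homozygous peak, 3817 without a heterozygous peak and 1462 without a wild-type peak. In 16.3% of the regions without a homozygous peak that library had another peak within 1 kb, and the same held for 17.1% without a heterozygous and 20.3% without a wild-type peak.

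Constant distal regions overlapped an annotated pseudogene in 1.18% of cases, against 0.855% of all distal regions. The share was 0.629% for distal regions of wild type alone and 0.812% for those of 1 knockout alone. These shares were not matched for width. Without chromosome 18, median widths were 767 bp for constant distal regions, 348 bp for wild type alone and 321 bp for 1 knockout alone. The order of the pseudogene shares is therefore not a finding about the regions. A small nucleolar RNA gene lay in 12 of the constant distal regions (0.157%), against 0.0481% of all distal regions. Constant distal regions with a wild-type peak of 1500 bp or wider, which the rule left out, numbered 386. Their median fold was 6.71 in homozygous, 5.59 in heterozygous and 5.88 in wild-type cells, near that of the narrower ones, while their median pile-ups of 111, 78 and 119 reads were higher.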
